A study of Mus musculus with 2 samples.

Results

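The Mir29 and Mir148/Mir152 families are miRNA genes whose mature products pair with transcripts of the DNA methylation machinery. They were described here across mouse embryonic stem cells and male fetal germ cells. The 7 members were chosen by name, namely Mir29a, Mir29b-1, Mir29b-2, Mir29c, Mir148a, Mir148b and Mir152, and all of them are listed among the 1638 miRNA features of the smRNA-seq table. The mESC library came from E14, an established wild-type line of embryonic stem cells. The methods of the study describe feeder-free culture of naive E14 cells with LIF and inhibitors of MEK and GSK3, but neither they nor the labels say that the cells of this library were grown in that way. The prospermatogonia library came from male embryos at E15.5, and the methods describe C57Bl/6J mothers with a reporter transgene. They do not give the strain or genotype of the father, and they describe no other genetic change. The labels call these cells primordial germ cells, and the methods call them prospermatogonia and isolate them through an Oct-4/GFP transgene carried by the mother. The number of embryos pooled was not given in the sources used here. Each condition had 1 library, so that no difference between the cell types has a replicate check or a test.

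A miRNA acts through its seed, bases 2 to 8 counted from the 5′ end, which pairs with matching bases in the 3′ UTR of a target and lowers its translation and stability. Members of a family with the same seed can pair with the same sites. Mir29 is best known for its action on the de novo methyltransferases Dnmt3a and Dnmt3b and on the Tet dioxygenases, and Mir148/Mir152 for its action on the maintenance methyltransferase Dnmt1. The DNA methylation of mESCs depends on their culture and is low in the naive state, and prospermatogonia regain methylation on a large scale in the fetal testis, after its erasure in their precursors. The comparison therefore asks how the miRNAs that can act on the writers and erasers of methylation differ between the cell types.

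Both families are known to release their main product from the 3′ arm of the hairpin. The values here are per gene, so the arm of a read was not measured. Reads of the 5′ arm, which has another seed, may be among those of a member. The mature sequences are shown because the shared seed, in capitals, defines each family, and because the bases outside it decide which gene a read can be assigned to. The sequences were taken from RefSeq on GRCm38.p6, in which all 7 members were matched by name.
miR-29a-3p: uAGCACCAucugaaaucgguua
miR-29b-3p: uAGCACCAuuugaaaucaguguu
miR-29c-3p: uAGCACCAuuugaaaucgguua
miR-148a-3p: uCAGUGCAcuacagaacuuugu
miR-148b-3p: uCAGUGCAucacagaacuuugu
miR-152-3p: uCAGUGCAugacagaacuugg

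No other mouse miRNA in RefSeq carried either of these seeds. Counted from 1 at the 5′ end, miR-29c-3p differed from miR-29a-3p at a single base, C10U, whereas miR-29b-3p differed from miR-29a-3p at 4 of 22 positions. Within the other family, miR-148b-3p differed from miR-148a-3p by C9U and U10C. Over the 21 positions of miR-152-3p, the difference from miR-148a-3p was C9U, U10G and U20G, and that from miR-148b-3p was C10G and U20G. Mir29b-1 and Mir29b-2 gave the same miR-29b-3p, so that a read of it cannot be placed on either gene by its sequence.

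The members lie at 5 places in the genome (GRCm38). Mir29a, at chr6:31062660-31062747, and Mir29b-1, at chr6:31063017-31063097, are on the minus strand and are separated by 269 bases. Mir29b-2, at chr1:195037040-195037120, and Mir29c, at chr1:195037547-195037634, are on the plus strand and are separated by 426 bases. This second pair lies in an exon of the non-coding transcript A330023F24Rik and opposite an exon of Cd46, which encodes a complement regulator. Mir148a stands alone at chr6:51269812-51269910, with no other annotated gene over it. Mir148b, at chr15:103285125-103285221, lies in an intron of Copz1, and Mir152, at chr11:96850393-96850465, lies in an intron of Copz2, both on the strand of their host. Copz1 and Copz2 are paralogs that encode subunits of the COPI vesicle coat.

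The deposited log2 values corresponded to whole reads, and a single read was worth 2.22 RPM in mESCs against 0.348 RPM in prospermatogonia, where RPM are reads scaled to a library of 1000000. The table held 110455 reads in mESCs and 155237 in prospermatogonia, which is 24.6% and 5.41% of the library totals that these values imply. The unit of the values is not stated in the sources used here, and the RPM, the totals and these percentages hold only if they are log2 RPM. Read counts, shares of the miRNA reads and ratios within a library need only the whole reads. If the unit is RPM, a ratio of RPM also carries the lower share of miRNAs among all smRNAs of prospermatogonia, and levels are given below on both scales. A count of 0 allows up to 3 reads, or 0.00272% of the miRNA reads in mESCs and 0.00193% in prospermatogonia. All intervals are 95% intervals of counting error only.

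Marker miRNAs were read as a check of the labels. The 12 listed miRNAs of the pluripotency clusters took 24.7% of the miRNA reads in mESCs and 3.25% in prospermatogonia, and the 17 features listed for male germ cells took 0.0118% and 10.6%. Of the 16493 germ cell marker reads in prospermatogonia, Mir743b held 9619 and Mir470 held 3906, and 4 of the 17 features had no read there. Fibroblast-associated miRNAs took 1.30% in mESCs and 0.169% in prospermatogonia. In mESCs Mir143 held 1393 of 1441 reads, Mir214 had 28, Mir145 had 17, Mir199b had 3, and Mir199a-1 and Mir199a-2 had 0. In prospermatogonia Mir143 had 260 reads, Mir214 had 2 and the other 4 had 0. Endothelial Mir126 had 255 and 40 reads, Mir202, a miRNA of gonadal somatic cells, had 0 and 57, and the red cell miRNAs Mir144 and Mir451 had 0 reads in mESCs and 1 in prospermatogonia.

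By counted reads the Mir148/Mir152 family was the more abundant in both cell types, and nearly all of it came from Mir148a. It held 2801 reads in mESCs, 2.54% of the miRNA reads (2.44% to 2.63%), and 4258 reads in prospermatogonia, 2.74% (2.66% to 2.83%). As a share of the miRNA reads the family was thus 1.08-fold higher in prospermatogonia (1.03 to 1.13), whereas in RPM it was 4.20-fold lower there (4.00 to 4.40).

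As counted, the Mir29 family was scarce in both cell types and was lower in prospermatogonia on either scale. Its sum holds no read of Mir29b-1 or Mir29b-2. Whether reads with several matches, such as those of miR-29b, were counted is not given in the sources used here. The family held 123 reads in mESCs, 0.111% of the miRNA reads (0.0933% to 0.133%), and 72 reads in prospermatogonia, 0.0464% (0.0368% to 0.0584%). Its share was 2.40-fold lower in prospermatogonia (1.80 to 3.21), and its RPM was 10.9-fold lower (8.16 to 14.6). At the share measured in mESCs, 173 reads would have been counted in prospermatogonia in place of 72.

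Mir148a had 2529 reads in mESCs (5624 RPM) and 3985 in prospermatogonia (1389 RPM). It ranked 8 of the 1638 features in mESCs and 6 in prospermatogonia, so that it belonged to the most abundant miRNAs of both. Its share of the miRNA reads was 2.29% in mESCs (2.20% to 2.38%) and 2.57% in prospermatogonia (2.49% to 2.65%), and these intervals do not overlap. With 1 library per condition, a 1.12-fold difference in share (1.07 to 1.18) says nothing of the spread between cultures or animals.

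Mir148b, the copy in Copz1, had 240 reads in mESCs (534 RPM) and 217 in prospermatogonia (75.6 RPM). Its share of the miRNA reads was 0.217% (0.192% to 0.247%) and 0.140% (0.122% to 0.160%), which is 1.55-fold lower in prospermatogonia (1.29 to 1.87). In contrast to Mir148a, this member was therefore lower in prospermatogonia as a share of the miRNA reads.

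Mir152, the copy in Copz2, had 32 reads in mESCs (71.2 RPM) and 56 in prospermatogonia (19.5 RPM). The shares, 0.0290% (0.0205% to 0.0409%) and 0.0361% (0.0278% to 0.0468%), have overlapping intervals. A difference in share was not detectable at this depth, since the ratio of 1.25 has an interval from 0.809 to 1.92.

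Mir29a was the only member of its family with more than 3 reads. It had 120 reads in mESCs (267 RPM) and 69 in prospermatogonia (24.0 RPM), at ranks 65 and 88. Its share of the miRNA reads was 0.109% (0.0909% to 0.130%) in mESCs and 0.0444% (0.0351% to 0.0562%) in prospermatogonia, 2.44-fold lower (1.82 to 3.28). The intervals of the libraries are well apart. Mir143 (1393 and 260 reads) and Mir126 (255 and 40 reads), miRNAs of mesenchymal and endothelial cells, were also lower in prospermatogonia. Other mesenchymal markers had few reads or none, with 28 and 2 for Mir214, 17 and 0 for Mir145, and 3 and 0 for Mir199b. Mir199a-1 and Mir199a-2 had 0 in both libraries. Mir202, of gonadal somatic cells, went the other way, with 0 and 57. The part of any such cells in the difference of Mir29a was not tested. In bulk samples, fewer cells of a type and less RNA per cell cannot be told apart.

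Mir29c had 3 reads in each library, a ratio of shares of 0.712 with an interval from 0.164 to 3.08, so that no direction can be read from it. Its sequence differs from that of the far more abundant miR-29a by the single base C10U, and how mismatched reads were assigned is not given in the sources used here. Mir29b-1 and Mir29b-2 were listed without a read in both libraries, although each lies close to a member that had reads. Of the 1638 features, 529 were matched by position to a RefSeq hairpin, and only these were compared. Of 76 among them whose mature sequence also occurs in another hairpin, 44 (57.9%) had no read in either library. Of the 453 without such a copy, 198 (43.7%) had none. Whether reads with several matches were counted is not given in the sources used here, and its part in these zeros was not tested. The level of miR-29b is therefore uncertain, and its absence from either cell type is not shown.

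**Figure D1:**
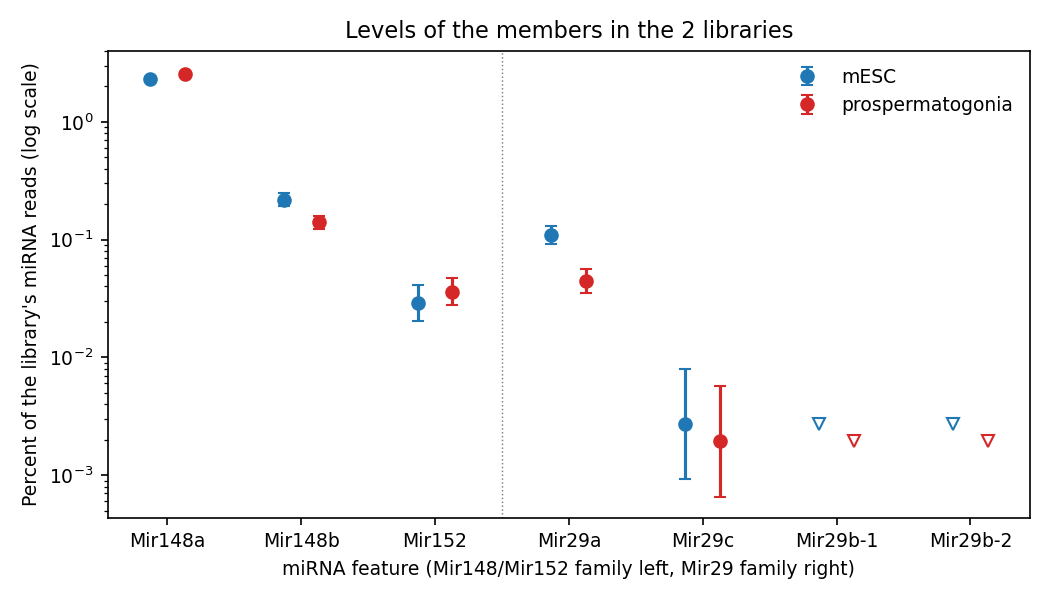
Share of the miRNA reads (percent, log axis) of each of the 7 members in the mESC library (blue) and the prospermatogonia library (red). Bars are 95% Wilson intervals of counting error, and open triangles stand for the most that a count of 0 allows. Mir148a is near 2.29% and 2.57%, whereas Mir29a is at 0.109% and 0.0444%.

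The order of the members was the same in both libraries. Mir148a was followed by Mir148b, Mir29a, Mir152 and Mir29c, and the members without a read came last. In mESCs Mir148a had 10.5 times the reads of Mir148b (9.23 to 12.0), Mir148b had 2.0 times those of Mir29a (1.61 to 2.49), and Mir29a had 3.75 times those of Mir152 (2.55 to 5.52). In prospermatogonia the step from Mir148a to Mir148b was 18.4-fold (16 to 21.1) and that from Mir148b to Mir29a was 3.14-fold (2.40 to 4.12). Mir29a and Mir152, with 69 and 56 reads, did not differ beyond counting error there (1.23-fold, 0.868 to 1.75). This is an order of reads, and how well each sequence was captured in the library was not measured.

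The make-up of the Mir148/Mir152 family differed between the libraries beyond counting error. Mir148a made up 90.3% of the family in mESCs (89.1% to 91.3%) and 93.6% in prospermatogonia (92.8% to 94.3%). Mir148b made up 8.57% (7.59% to 9.66%) and 5.10% (4.48% to 5.80%). The ratio of Mir148a to Mir148b was thus 1.74 times as high in prospermatogonia (1.44 to 2.11). Mir152 made up 1.14% and 1.32% with overlapping intervals.

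The seed families were set against each other within a library, since such a ratio depends neither on the library total nor on the share of miRNAs. In mESCs there were 22.8 reads of the Mir148/Mir152 family for each read of the Mir29 family (19.0 to 27.3). In prospermatogonia there were 59.1 (46.9 to 74.6). The balance thus lay 2.60-fold further toward Mir148/Mir152 in prospermatogonia (1.93 to 3.49), and the intervals of the libraries do not overlap. Over the 203 features with at least 10 RPM in a library, log2 ratios of prospermatogonia over mESC had quartiles of -3.68 and -1.42. These are of RPM with a pseudocount of 1. Mir29a (-3.42) and Mir148a (-2.02) both lay between the quartiles, so that a shift of this size between features is not particular to these families. The Mir29 side of this ratio is Mir29a almost alone, with 97.6% of the family reads in mESCs and 95.8% in prospermatogonia. Any reads of miR-29b left out of the count would change this ratio.

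Each member of the Mir148/Mir152 family was higher relative to Mir29a in prospermatogonia. The ratio to Mir29a was 2.74 times as high for Mir148a (2.03 to 3.70), 1.57 times for Mir148b (1.11 to 2.23) and 3.04 times for Mir152 (1.80 to 5.15). For Mir148b and Mir152 together, without Mir148a, it was 1.75 times as high (1.24 to 2.45). These ratios share the reads of Mir29a and are not independent of each other. Mir152 went from 0.267 reads per read of Mir29a in mESCs (0.181 to 0.393) to 0.812 in prospermatogonia (0.572 to 1.15).

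**Figure D2:**
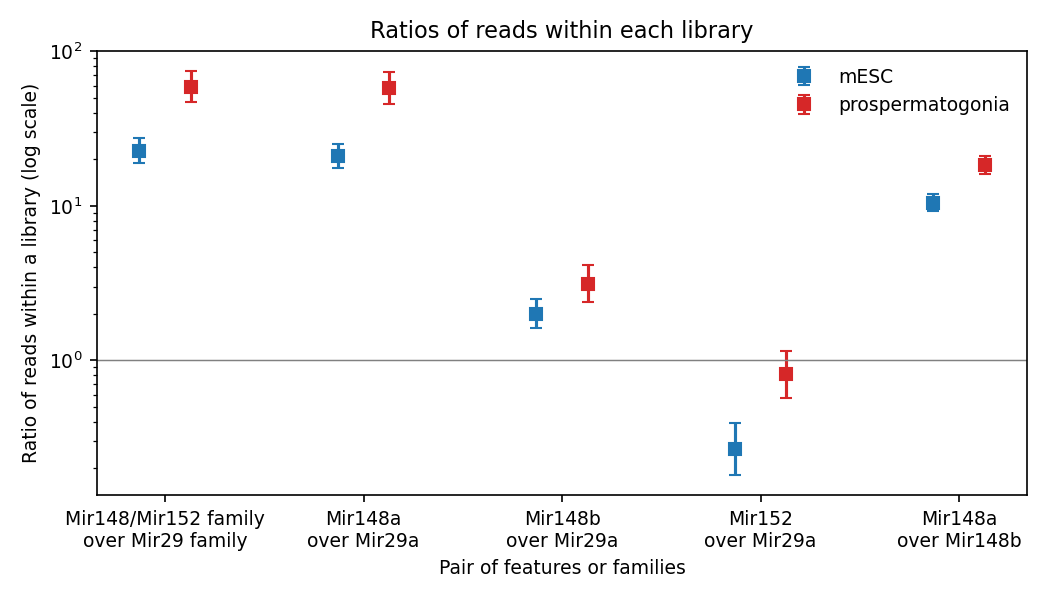
Ratios of reads within the mESC library (blue) and the prospermatogonia library (red) for pairs of features or families, on a log axis. Bars are 95% intervals of counting error and the grey line marks equal reads. All ratios over Mir29a are higher in prospermatogonia. The ratio of the Mir148/Mir152 family to the Mir29 family is 22.8 in mESCs and 59.1 in prospermatogonia.

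In RPM the members lay on both sides of the median of all miRNAs. Of 203 features with at least 10 RPM in a library, 164 (80.8%) were at least 2-fold lower in prospermatogonia, and 4 of the 4 members among them were, whereas 20 features (9.85%) and no member were at least 2-fold higher. All 4 had at least 10 RPM in both libraries, and Mir29c, Mir29b-1 and Mir29b-2 stayed below this limit in both. The log2 ratios, of RPM with a pseudocount of 1, were -3.42 for Mir29a, -2.80 for Mir148b, -2.02 for Mir148a and -1.81 for Mir152. The median of the 4 was -2.41, and that of all 203 features was -2.52. Of the 203 features, 70.0% had a higher log2 ratio than Mir29a and 36.5% a higher one than Mir148a.

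When the libraries were scaled to all miRNA reads, every log2 ratio moved up by 2.18 before the pseudocount, and the calls of the members changed with it. Of the 203 features, 81 (39.9%) were then at least 2-fold lower in prospermatogonia and 41 (20.2%) at least 2-fold higher. Mir29a was the only member still lower by this limit, at -1.28. Mir148b was at -0.63, and Mir148a and Mir152 turned to 0.16 and 0.31. The median of all features was -0.46 on this scale.

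**Figure D3:**
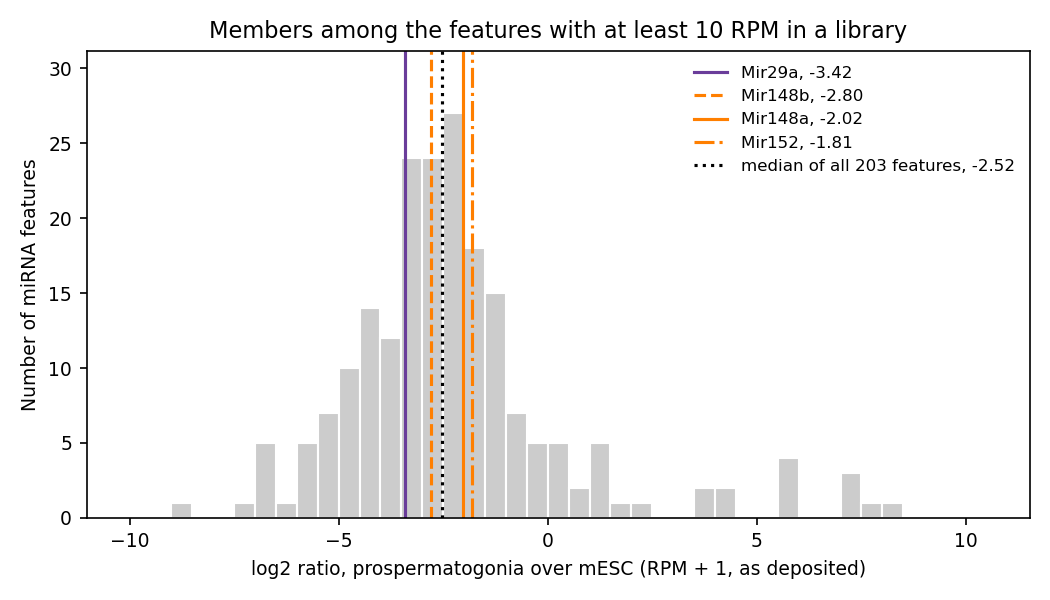
Number of miRNA features by log2 ratio of prospermatogonia over mESC, from RPM as deposited with a pseudocount of 1, for the 203 features with at least 10 RPM in a library. Lines mark the 4 members and the median of all features (-2.52). Mir29a (-3.42) and Mir148b (-2.80) lie below the median, and Mir148a (-2.02) and Mir152 (-1.81) above it.

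Features with levels most like those of the leading members were sought among 629 other miRNA features, by the distance of the log2(RPM + 1) values over the 2 libraries. Nearest to Mir29a were Mir15b, with 118 reads in mESCs and 76 in prospermatogonia (distance 0.14), Mir96, with 155 and 58 (0.44), and Mir210, with 95 and 53 (0.49). Nearest to Mir148a were Mir25, with 1738 and 4250 reads (0.55), Mir30e, with 1450 and 2831 (0.94), and Mir183, with 5173 and 3859 (1.03). With 2 libraries such likeness describes a pair of levels and no more.

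Other miRNAs reported to act on DNA methyltransferase transcripts formed a list of 6 features. As shares of the miRNA reads they showed no common direction. Mir101a and Mir101b, which can act on Dnmt3a, had 139 and 148 reads in mESCs and 231 and 268 in prospermatogonia, that is 1.18-fold (0.958 to 1.46) and 1.29-fold (1.05 to 1.57) the mESC share.

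Mir143, a mesenchymal miRNA that can also act on Dnmt3a, had 1393 reads in mESCs and 260 in prospermatogonia, a share 7.53-fold lower (6.60 to 8.60). Mir126, the endothelial miRNA linked to Dnmt1, had 255 and 40 reads, a share 8.96-fold lower (6.43 to 12.5). Mir143 and Mir126 were thus further below their mESC share than Mir29a was. Mir342, also linked to Dnmt1, had 32 and 43 reads with a ratio of shares of 0.956 (0.607 to 1.51), and Mir185 had 3 reads in mESCs and none in prospermatogonia. In RPM 5 of the 6 were above 10 in a library, and all 5 were at least 2-fold lower in prospermatogonia, beside the 80.8% of all features.

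To show where the families can pair with the methylation machinery, their seed matches were located in the longest annotated 3′ UTR of 9 genes (GENCODE vM21, GRCm38). Only the strand of the transcript was searched. The match was TGGTGCT for Mir29 and TGCACTG for Mir148/Mir152, and an A after it, opposite the first base of the miRNA, makes a match of 8 bases. Over the 3′ UTRs of 20846 genes, 13.2% held at least 1 match for Mir29 and 12.8% for Mir148/Mir152. A match is a string of letters and does not show that a site is used, and no target transcript was measured here.

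Except for Tdg, no 3′ UTR held matches for both families. Dnmt1, the maintenance methyltransferase, held 1 match for Mir148/Mir152 and none for Mir29 in 312 bases of 3′ UTR. It starts at base 23 after the stop codon, and 3.12% of genes with a 3′ UTR of similar length (within 20%) held such a match. Uhrf1, which brings Dnmt1 to hemimethylated DNA, held 1 match for Mir148/Mir152 and none for Mir29 in 984 bases, at which length 9.91% of genes held a match for Mir148/Mir152. These 2 sites are shown with the match in capitals, each followed by the A of a match of 8 bases.
Dnmt1, chr9:20907491-20907513, minus strand: acccagagccccacgTGCACTGa
Uhrf1, chr17:56323100-56323122, plus strand: ctggttttcagagagTGCACTGa

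The de novo methyltransferases held matches for Mir29 and none for Mir148/Mir152 in their 3′ UTRs. Dnmt3a held 5 in 6696 bases, and 46.1% of genes of similar 3′ UTR length held at least 1. Dnmt3b held 1 in 1331 bases, where the share was 12.0%. Dnmt3l, the cofactor of de novo methylation in germ cells, held a match for neither family in 273 bases. In the coding sequence Dnmt3a and Dnmt3b each held 1 match for either family, and Dnmt1 held 2 for Mir29. The 2 matches of 8 bases in Dnmt3a, at bases 3658 and 3727 after the stop codon, and that of 7 bases in Dnmt3b are shown because they pair with the seed of Mir29a.
Dnmt3a, chr12:3911390-3911412, plus strand: cccaggggaggtagcTGGTGCTa
Dnmt3a, chr12:3911459-3911481, plus strand: agcggggtcccaagcTGGTGCTa
Dnmt3b, chr2:153686612-153686634, plus strand: tagagtagcccggcaTGGTGCTc

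The genes of active demethylation held most of the matches for Mir29. Tet1, Tet2 and Tet3, which oxidize methylated cytosine, held 7, 5 and 8, and the shares of genes of similar 3′ UTR length with at least 1 were 51.5%, 26.4% and 42.4%. Tdg, which excises the oxidized base, held 3 for Mir29 and 2 overlapping ones for Mir148/Mir152, where the shares were 18.7% and 19.0%. In all, 6 of the 9 genes held 29 matches for Mir29, and 3 of the 9 held 4 for Mir148/Mir152. Matches were more common in long 3′ UTRs: the share of genes with a Mir29 match went from 3.28% at the length of Dnmt3l to 51.5% at that of Tet1.

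**Figure D4:**
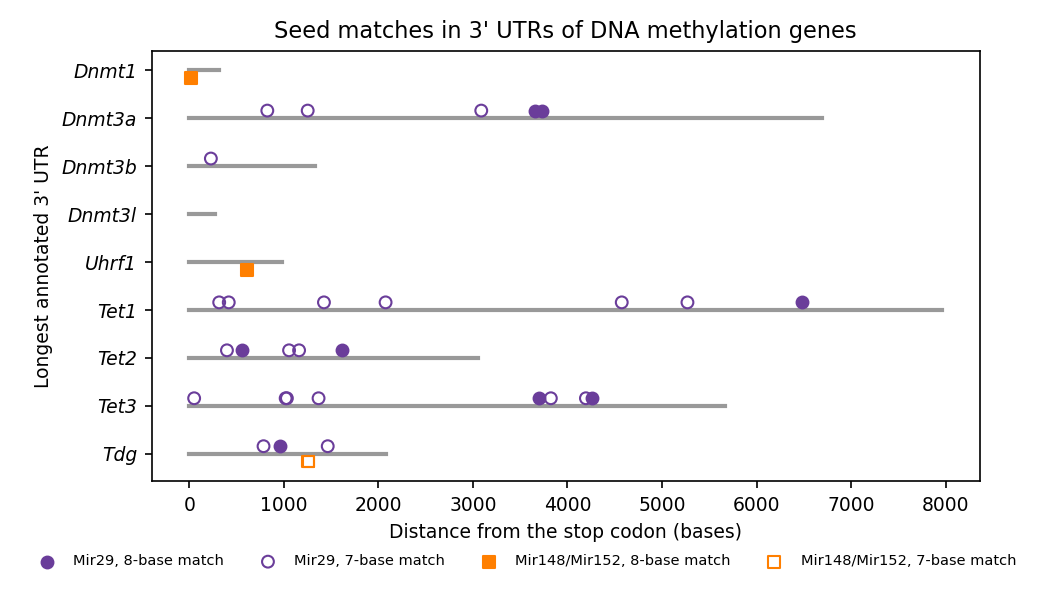
Seed matches of the Mir29 family (purple circles) and the Mir148/Mir152 family (orange squares) in the longest annotated 3′ UTR of 9 genes, by distance from the stop codon in bases. Grey lines are the 3′ UTRs, filled symbols are matches of 8 bases and open symbols matches of 7. Dnmt3a holds 5 matches for Mir29, whereas Dnmt1 and Uhrf1 each hold 1 for Mir148/Mir152.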

How the data were processed

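The data were 1 smRNA-seq library of mESCs and 1 of prospermatogonia. The authors trimmed the reads (Trim Galore 0.4.1 in the submitters' processing notes), mapped them with Bowtie in the piPipes pipeline, per the methods, and deposited a log2 value per miRNA feature and library. The methods of the study name mm9 and the labels GRCm38. Of the 7 members, 6 had exactly the position of their gene in GENCODE vM21 on GRCm38, which was used for coordinates. The counting step behind the miRNA values, its use of strand and its treatment of reads with several matches are not given in the sources used here.

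The unit is not stated in the sources used here, and values were read as log2 RPM. In linear form they were whole multiples of the value of a single read within 0.0159 reads, except features without a read, entered as 0.900 reads and set to 0. The library totals implied were 449643 and 2869578 reads. Without replicates no test was run. Ratios used RPM with a pseudocount of 1, and counts of features a minimum of 10 RPM in at least 1 library and a 2-fold limit. Shares carry 95% Wilson intervals, ratios intervals from the same method, and ratios of ratios intervals from the log scale. The scripts were tested on simulated reads. Members, lists and rules for named features were chosen with earlier results of these data known. The named features are the members, the 3 nearest to each leading member and the list of 6. Computation used pandas 2.3.3 and numpy 2.4.6 in Python 3.11.15, intervals scipy 1.17.1, and figures matplotlib 3.10.9.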

Additional observations from a re-analysis of the deposited data

How the results depend on the processing

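No paired analysis was possible because there was a single library per condition, and for the same reason no replicate could be left out. Other scalings were to the median ratio, to all miRNA reads, and to the reads left without the 10 highest rows of each library. They shift every log2 ratio by 2.37, 2.18 and 2.26 before the pseudocount. In this order the Mir29 family went from -3.40 to -1.07, -1.26 and -1.18, and the Mir148/Mir152 family turned from -2.07 to 0.30, 0.11 and 0.19. Mir148a turned from -2.02 to 0.35, 0.16 and 0.24, and Mir152 from -1.81 to 0.50, 0.31 and 0.38. The number of members at least 2-fold lower in prospermatogonia went from 4 to 1 under each of these scalings. Of all 203 features, 80.8% were lower by this limit as deposited and 36.5%, 39.9% and 38.4% after scaling. Of all calls, 10.9% were higher as deposited and 37.8%, 33.6% and 36.1% after scaling. The number of lower members was 5 with no filter on low values, beside 65.0% of all features, and 3 with a 4-fold limit, beside 64.5%. These scalings turned no other member ratio, and Mir29c, with 3 reads per library, has no readable direction.

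Shares were also taken of the sum without any row among the 10 highest of either library, which leaves out Mir148a. The Mir148/Mir152 family then held 0.887% in mESCs and 0.666% in prospermatogonia, and the Mir29 family 0.401% and 0.176%. Without the highest member of each family, the ratio of Mir148/Mir152 to Mir29 reads was 90.7 in mESCs and 91.0 in prospermatogonia, but Mir148a and Mir29a are then both left out and 3 reads of Mir29c are the whole denominator. Depth limits Mir29c and Mir152.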
